A study of Mus musculus with 4 samples.

Results

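HOX genes encode homeodomain transcription factors. They were read here as every row of the deposited expression matrix whose symbol begins with Hoxa, Hoxb, Hoxc or Hoxd and a number, a rule that used no measured value. It gave 18 of 19354 rows, of which 16 were coding genes and 2, *Hoxb3os* and *Hoxb5os*, were antisense genes that are reported apart. The values come from bulk RNA-Seq of hematopoietic stem cells (HSCs), sorted from mice as LSK FLT3- CD48- CD150+ cells, where LSK stands for lineage-negative, Sca1-positive and c-Kit-positive. Controls were *Mx1-Cre*; *Id2*+/+ mice, and the deleted group was *Mx1-Cre*; *Id2*Fl/Fl mice, called *Id2*Δ/Δ after deletion. The floxed line had been backcrossed to C57BL/6. Both groups carried *Mx1-Cre* and both received pIpC, which induces interferon and through it the Cre recombinase, in any interferon-responsive cell and not in HSCs alone. The mice were 8 to 16 weeks old, and HSCs were taken 2 weeks after pIpC and pooled from 14 *Id2*+/+ and 15 *Id2*Fl/Fl animals over 2 experiments. Each genotype had 2 libraries, called replicates 1 and 2. Which experiment gave which library is not in the labels, so p-values measure only the spread between these libraries. In bulk RNA, fewer cells of a type and less RNA per cell cannot be told apart.

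HOX genes lie in 4 clusters, in which the genes are numbered from the 3′ end to the 5′ end and paralogues in different clusters share a number. In blood, members of clusters A and B are known for expression in stem and early progenitor cells that falls as cells differentiate. HOX proteins bind DNA together with PBX and MEIS partners, and their genes are kept active by MLL complexes and silenced by Polycomb complexes. ID2 binds no DNA itself and blocks E proteins, which bind the E-box. For HSC quiescence the paper held a route through E proteins to be unlikely, and it linked ID2 to the stability of the HIF-1α protein.

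The bases just before the start are shown for *Hoxb4*, which was higher in both *Id2*Δ/Δ libraries than in either control, and for *Hoxa9*, the most abundant HOX transcript per kilobase. Of the 18 HOX rows, 9 had an entry in the RefSeq promoter table (GRCm38.p6), with 10 starts in all, and the 250 bases before each start were searched on both strands. The *Hoxb4* stretch is chr11:96318017-96318266 on the plus strand and the *Hoxa9* stretch is chr6:52227371-52227620 on the minus strand. Capitals mark the E-box (CANNTG), the core letters of HIF-1 sites (ACGTG and GCGTG) and the CCAAT box.
Hoxb4: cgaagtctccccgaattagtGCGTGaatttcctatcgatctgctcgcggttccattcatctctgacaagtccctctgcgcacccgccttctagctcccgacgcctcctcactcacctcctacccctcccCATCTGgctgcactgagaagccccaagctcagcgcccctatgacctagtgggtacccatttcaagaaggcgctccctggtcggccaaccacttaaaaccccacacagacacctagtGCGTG
Hoxa9: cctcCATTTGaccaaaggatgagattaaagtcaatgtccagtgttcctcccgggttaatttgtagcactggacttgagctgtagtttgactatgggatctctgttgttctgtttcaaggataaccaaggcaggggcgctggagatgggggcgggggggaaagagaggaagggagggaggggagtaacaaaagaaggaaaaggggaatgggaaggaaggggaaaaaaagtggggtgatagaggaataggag
Counted back from the start, the E-box of *Hoxb4* begins at -121 and GCGTG begins at -230 and at -5. *Hoxa9* holds a single E-box, at -246, and none of the other motifs. An E-box was found before 7 of the 10 HOX starts and in 66.2% of 32851 promoters of the same length. GCGTG was found before 6 of the 10 HOX starts against 28.2% of promoters, CCAAT before 4 against 33.8%, and ACGTG before 0 against 16.6%. The E-box form CACGTG, which contains ACGTG, was found before 0 of the 10 against 6.02%, and an E-box and a CCAAT box can share letters. Bases just after the starts of *Hoxa3*, which adds an E-box and GCGTG to the counts, and of *Hoxa7* were not found in an annotated transcript of the gene. *Hoxa10* was counted with both of its starts. A match describes these letters and does not show a binding site.

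Depth was 14200000 and 15700000 reads for the *Id2*+/+ libraries and 17800000 and 18800000 for the *Id2*Δ/Δ libraries, recovered from the steps between low values. *Id2* had 93 and 98 reads in *Id2*+/+ and 0 in both *Id2*Δ/Δ libraries, so it was at least 37.9-fold lower when 3 reads are allowed in the shallower *Id2*Δ/Δ library, for counting error only. HSC markers other than *Hoxb5* (9 of 9 with a row) summed to 4616 to 4695 CPM (counts-per-million) in *Id2*+/+ and 3301 to 3786 CPM in *Id2*Δ/Δ libraries. The genotypes were also separate in the sum of megakaryocyte markers (5 of 5 with a row, 323 to 339 against 398 to 410 CPM). The same held, by a narrow margin, for the sum of genes whose proteins the gate excludes (2 of 3, *Cd48* and *Flt3*, 53.0 to 57.7 against 48.3 to 52.3 CPM). Taken singly, *Cd48* and *Flt3* each overlapped between genotypes, so only their sum was separate. Sums overlapped for neutrophil markers (7 of 7, 51.9 to 141 against 25.7 to 108 CPM), erythroid markers (6 of 7, 42.4 to 53.3 against 42.0 to 65.3 CPM) and stroma and endothelium (5 of 11, 101 to 106 against 82.7 to 110 CPM). They also overlapped for B-cell markers (2 of 5, 33.6 to 37.9 against 34.5 to 51.0 CPM) and T-cell markers (1 of 4, 1.38 to 3.40 against 2.27 to 2.54 CPM), and the defining *Pax5*, *Cd79a* and *Cd3e* had no row.

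Of 39 annotated coding HOX genes, 16 (41.0%) had a row, against 61.5% of 21951 protein-coding genes. Cluster A on chromosome 6 had rows for 8 of 11 genes, cluster B on chromosome 11 for 7 of 10, cluster C on chromosome 15 for 1 of 9 and cluster D on chromosome 2 for 0 of 9. In cluster C, *Hoxc6* was the only gene with a row. Genes without a row were not analysed here, and no level is given for them.

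Levels of different genes were compared as log2 CPM per kilobase of the longest transcript, averaged over the 4 libraries. *Hoxa9*, a driver of stem and myeloid progenitor growth, stood highest at 5.30, followed by *Hoxa7* at 4.53, *Hoxa5* at 3.74, *Hoxa10* at 3.35 and *Hoxa3* at 2.45. No library of these 5 genes overlapped in level with those of another of them. *Hoxb5*, a marker gene of long-term HSCs, followed at 1.91 and *Hoxb3* at 1.85, then *Hoxa6* at 1.70, *Hoxb4* at 1.61 and *Hoxb2* at 1.47, all on the per-kilobase scale. Neighbours from *Hoxa3* to *Hoxb2* overlapped, so the order from *Hoxb5* to *Hoxb2* was not resolved. *Hoxb6* at 0.35 lay below *Hoxb2* in range, while *Hoxa2* at 0.31, *Hoxa4* at 0.26, *Hoxc6* at -0.65, *Hoxb7* at -1.79 and *Hoxb9* at -2.53 each overlapped the gene above. *Hoxa9* alone made up 29.7% to 38.3% of the coding HOX level per kilobase in a library, cluster A 81.1% to 88.0% and cluster B 11.4% to 18.1%. The order and the shares hold for the longest transcript only. All annotated exons together give *Hoxa9* 5580 bases against 3226, and *Hoxa3* 6014 bases against 2591. The order could differ by that length, which was not used.

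**Figure D1:**
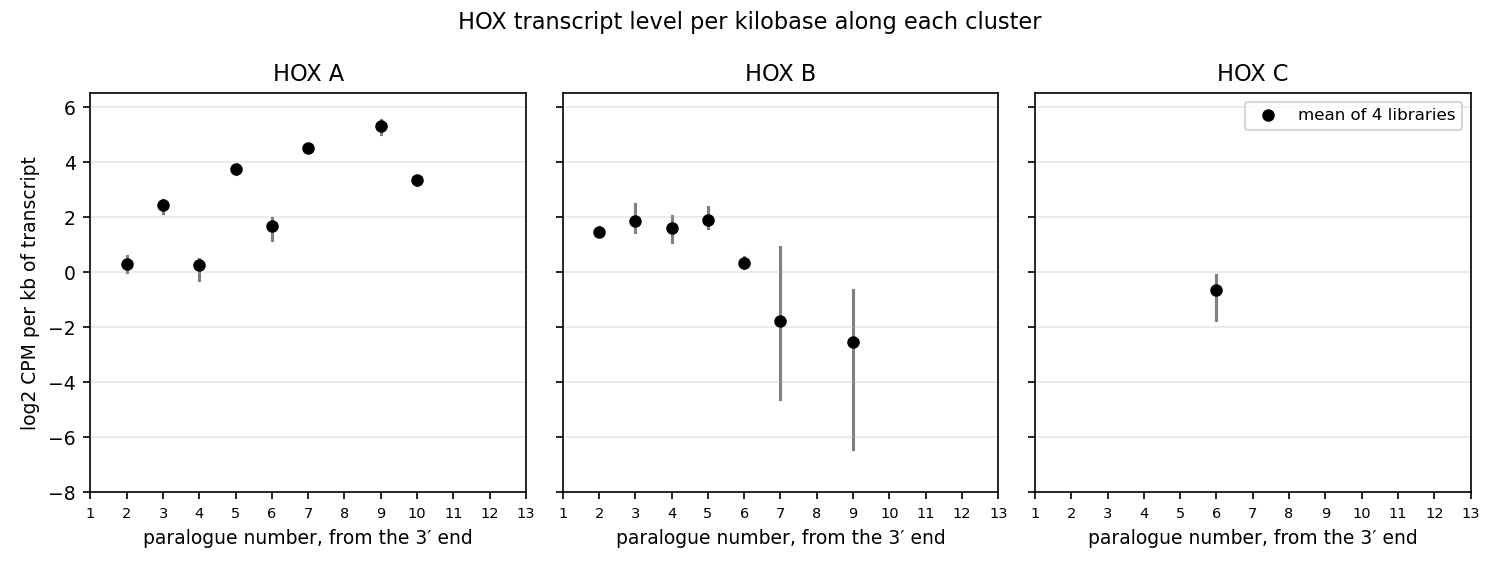
Level of each coding HOX gene in log2 CPM per kilobase (vertical axis) against its paralogue number (horizontal axis) in clusters A, B and C, with points for the mean of 4 libraries and bars for the range over them, for genes with a row. *Hoxa9* has the highest mean, 5.30, and *Hoxb9* the lowest, -2.53.

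Along cluster A the level did not climb gene by gene, since *Hoxa4* and *Hoxa6* lay below the genes on either side of them. In cluster B, *Hoxb2* to *Hoxb5* lay above *Hoxb6*, and *Hoxb7* and *Hoxb9* had the lowest means.

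*Id2*Δ/Δ and *Id2*+/+ HSCs were then compared gene by gene with limma over all genes that averaged 1 CPM or more. This kept 14 coding HOX genes and both antisense genes, while *Hoxb7* and *Hoxb9* fell under the filter. No HOX gene passed an adjusted p-value of 0.05 (0 of 16, smallest adjusted p = 0.910), and the share of all 15895 genes tested that passed was 0%. *Id2* itself, with a log2 fold change of -7.31, had the smallest p-value of all genes (unadjusted p = 0.000181, adjusted p = 0.910, limma). Even the deleted gene was thus not called, so the lack of calls does not show that HOX levels were unchanged. Without adjustment, 0 of 16 HOX genes had a p-value under 0.05 in limma, against 742 of all genes tested, or 4.67%. The *Id2*Δ/Δ libraries were both higher than either *Id2*+/+ library for 4 of the 14 coding genes (*Hoxb2*, *Hoxb3*, *Hoxb4* and *Hoxc6*), against 19% of all genes. They were both lower for 2 of the 14 (*Hoxa2* and *Hoxa7*), against 15.8% of all genes. *Hoxc6* averaged 0.774 CPM in *Id2*+/+ and 1.43 CPM in *Id2*Δ/Δ HSCs, so it passed the filter only through the group in which it was higher, and its place among the higher genes was partly set by the filter. The log2 fold change was above 0 in 8 of the 14, against 51.7% of all genes, and its median was 0.04 against 0.01 over all genes. In 10 of the 14 genes, a gap between replicates of the same genotype was larger than the difference between genotypes. The same was so for 14 of 18 HOX activators and 24 of 28 Polycomb and related factors described below. It was so for 6 of 8 HOX cofactors and 10 of 11 genes flanking the clusters. Among markers it was so for 7 of 7 neutrophil, 5 of 10 HSC (*Hoxb5* included) and 1 of 5 megakaryocyte genes. The share over all genes was not counted, so these counts are a description and show nothing particular to HOX genes.

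**Figure D2:**
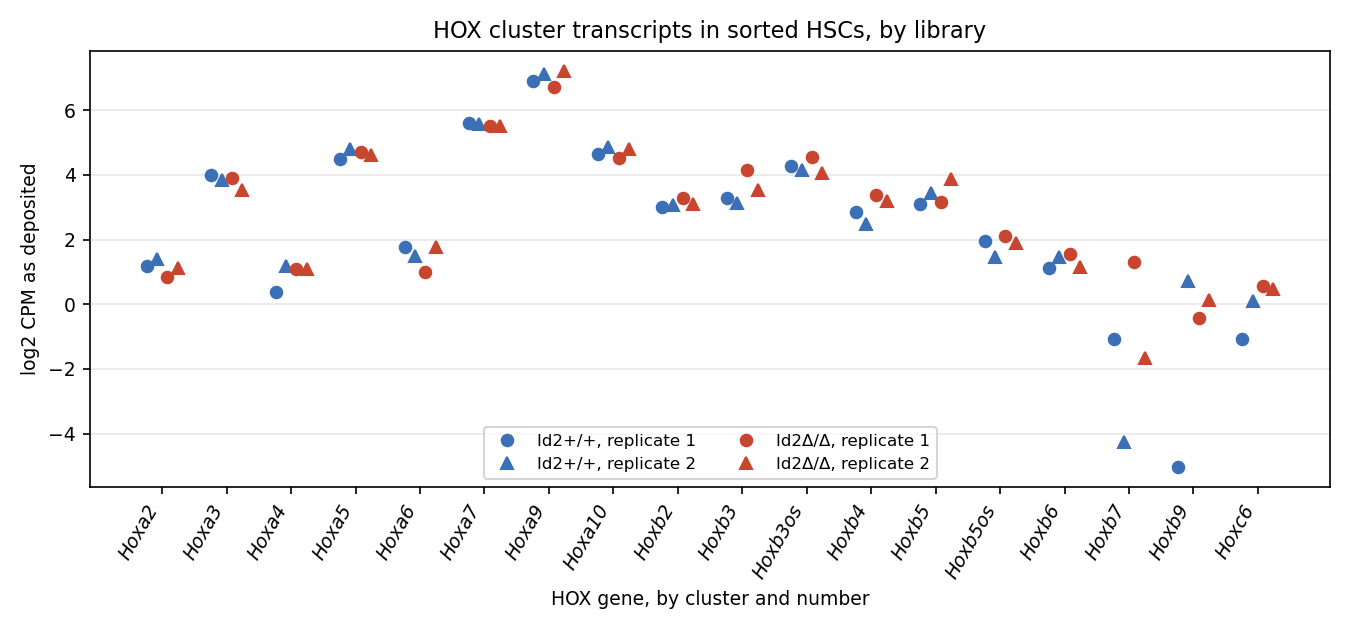
Deposited log2 CPM (vertical axis) of the 18 HOX rows in order of cluster and number (horizontal axis), with a point for each library, coloured by genotype and shaped by replicate. *Hoxb3* and *Hoxb4* show both *Id2*Δ/Δ points above both *Id2*+/+ points, and *Hoxb7* and *Hoxb9* are spread widely within a genotype.

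In cluster A, *Hoxa9* (chr6:52223100-52231089, minus strand) was 6.90 and 7.13 log2 CPM in *Id2*+/+ replicates 1 and 2 and 6.71 and 7.23 log2 CPM in *Id2*Δ/Δ replicates 1 and 2. The *Id2*Δ/Δ libraries held both the lowest and the highest value, and the log2 fold change was -0.05 (standard error, SE, 0.19, 95% interval -0.49 to 0.40, adjusted p = 0.973, limma). *Hoxa7* (chr6:52214491-52221854), which can cooperate with *Meis1* in leukemia as *Hoxa9* does, was 5.60 and 5.57 log2 CPM in *Id2*+/+ and 5.52 and 5.51 log2 CPM in *Id2*Δ/Δ HSCs. Its groups did not overlap, by a narrow margin, and its log2 fold change was -0.07 (SE 0.15, 95% interval -0.43 to 0.28, adjusted p = 0.948, limma). *Hoxaas3*, on the opposite strand, shares 20.4% of the exonic bases of *Hoxa7*.

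*Hoxa2* (chr6:52162417-52164831), best known for hindbrain and branchial arch patterning, was 1.18 and 1.4 log2 CPM in *Id2*+/+ and 0.85 and 1.12 log2 CPM in *Id2*Δ/Δ HSCs, from 33, 42, 32 and 37 reads. The upper *Id2*Δ/Δ library lay just under the lower control, and the log2 fold change was -0.31 (SE 0.51, 95% interval -1.51 to 0.89, adjusted p = 0.941, limma), or -0.17 without *Id2*Δ/Δ replicate 1. The remaining 5 genes of cluster A overlapped between genotypes. *Hoxa10*, which acts in stem and megakaryocyte progenitors, was 4.65 and 4.87 against 4.53 and 4.79 log2 CPM, and *Hoxa5* was 4.49 and 4.79 against 4.70 and 4.62 log2 CPM. *Hoxa3* was 4.0 and 3.85 against 3.91 and 3.53 log2 CPM. These 3 genes had log2 fold changes of -0.10, 0.02 and -0.20, and that of *Hoxa3* was -0.012 without *Id2*Δ/Δ replicate 2. *Hoxa6* was 1.76 and 1.5 against 1.00 and 1.76 log2 CPM, and *Hoxa4* was 0.39 and 1.17 against 1.08 and 1.08 log2 CPM. Their log2 fold changes were -0.25 and 0.30, each smaller than a replicate gap. Of the exonic bases of *Hoxa3*, 25.4% lie opposite exons of other genes and 8.0% are shared on the same strand. For *Hoxa4*, 16.0% lie opposite *Gm29430*, and for *Hoxa2*, 15.0% are shared with *Gm28308* on the same strand. How such reads were counted is not given in the sources used here, so these values and that of *Hoxa7* are uncertain. In all, 6 of 8 cluster A genes had a log2 fold change below 0, with a median of -0.09 that was 0.0034 without *Id2*Δ/Δ replicate 1 and -0.15 without *Id2*Δ/Δ replicate 2. That count was 8 without *Id2*+/+ replicate 1 and 4 without *Id2*+/+ replicate 2 or without *Id2*Δ/Δ replicate 1. When single libraries were left out, *Hoxa9* changed sign (0.06 without *Id2*+/+ replicate 2, 0.22 without *Id2*Δ/Δ replicate 1), as did *Hoxa10* (0.013 and 0.029 without the same libraries). So did *Hoxa5* (-0.13 without *Id2*+/+ replicate 1, -0.02 without *Id2*Δ/Δ replicate 1), *Hoxa4* (-0.090 without *Id2*+/+ replicate 1) and *Hoxa6* (0.13 without *Id2*Δ/Δ replicate 1).

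In cluster B, *Hoxb4* (chr11:96318267-96321638, plus strand), known for expanding HSCs when it is overexpressed, was 2.84 and 2.47 log2 CPM in *Id2*+/+ replicates 1 and 2. It was 3.39 and 3.18 log2 CPM in *Id2*Δ/Δ replicates 1 and 2, from 104 and 88 against 184 and 164 reads. Each *Id2*Δ/Δ library exceeded each control, and the log2 fold change was 0.63 (SE 0.31, 95% interval -0.09 to 1.35, unadjusted p = 0.0780, adjusted p = 0.910, limma). *Hoxb4* shares no exonic bases with another annotated gene. *Hoxb3* (chr11:96323326-96347930), which is expressed in HSCs beside *Hoxb4*, was 3.29 and 3.13 log2 CPM in *Id2*+/+ and 4.15 and 3.53 log2 CPM in *Id2*Δ/Δ HSCs, from 142 and 140 against 315 and 212 reads. Its *Id2*Δ/Δ libraries also exceeded the controls, and the log2 fold change was again 0.63 (SE 0.30, 95% interval -0.06 to 1.32, unadjusted p = 0.0696, adjusted p = 0.910, limma). Without *Id2*Δ/Δ replicate 1, the higher of the pair, it was 0.32, and *Hoxb4* ranged from 0.44 to 0.82 as single libraries were left out. Of the exonic bases of *Hoxb3*, 52.9% lie opposite exons of *Hoxb3os*, and the use of strand in counting is not given in the sources used here, so its value and that of *Hoxb3os* are uncertain.

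*Hoxb2* (chr11:96350525-96354012) was 3.0 and 3.07 log2 CPM in *Id2*+/+ and 3.30 and 3.11 log2 CPM in *Id2*Δ/Δ HSCs. The groups were separate by a narrow margin, the log2 fold change was 0.17 (SE 0.28, 95% interval -0.48 to 0.83, adjusted p = 0.940, limma), and it was 0.082 without *Id2*Δ/Δ replicate 1. Of its exonic bases, 27.3% also lie opposite *Hoxb3os*. *Hoxb5* (chr11:96303336-96306121) was 3.09 and 3.44 log2 CPM in *Id2*+/+ and 3.17 and 3.86 log2 CPM in *Id2*Δ/Δ HSCs. The groups overlapped, and its log2 fold change of 0.25 (SE 0.32, 95% interval -0.51 to 1.01, adjusted p = 0.931, limma) was -0.10 without *Id2*Δ/Δ replicate 2. *Hoxb6*, the 5′ neighbour of *Hoxb5*, was 1.12 and 1.47 against 1.54 and 1.16 log2 CPM, a log2 fold change of 0.06. It was -0.11 without *Id2*+/+ replicate 1, -0.13 without *Id2*Δ/Δ replicate 1 and -0.05 when the recovered reads were used. All 5 tested cluster B genes thus had a log2 fold change above 0, with a median of 0.25, and this count was 4 without *Id2*+/+ replicate 1 or without either *Id2*Δ/Δ library.

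The untested members *Hoxb7* and *Hoxb9* were uneven within a genotype. *Hoxb7* had 7 and 1 reads in *Id2*+/+ and 44 and 5 reads in *Id2*Δ/Δ HSCs. *Hoxb9* had 0 and 26 reads in *Id2*+/+ and 12 and 18 reads in *Id2*Δ/Δ HSCs, and the count of 0 allows up to 0.211 CPM. For both genes the genotypes overlapped, and single libraries differed by more than counting error: the 95% Poisson interval of *Hoxb7* was 1.8 to 3.33 CPM in *Id2*Δ/Δ replicate 1 and 0.0862 to 0.620 CPM in *Id2*Δ/Δ replicate 2.

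The antisense genes overlapped between genotypes. *Hoxb3os* was 4.27 and 4.14 log2 CPM in *Id2*+/+ and 4.55 and 4.05 log2 CPM in *Id2*Δ/Δ HSCs, and its log2 fold change of 0.10 became -0.15 without *Id2*Δ/Δ replicate 1. *Hoxb5os* was 1.96 and 1.47 against 2.10 and 1.90 log2 CPM, a log2 fold change of 0.29 that was 0.041 without *Id2*+/+ replicate 2 and 0.53 without *Id2*+/+ replicate 1. Exons of *Hoxb2* or *Hoxb3* lie opposite 76.2% of the exonic bases of *Hoxb3os*, and *Hoxb5* lies opposite 14.4% of those of *Hoxb5os*.

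*Hoxc6* (chr15:102998257-103011881, plus strand), the cluster C member, was -1.07 and 0.10 log2 CPM in *Id2*+/+ and 0.57 and 0.46 log2 CPM in *Id2*Δ/Δ HSCs. These values rest on 7 and 17 against 26 and 23 reads, and the gene was tested only because the *Id2*Δ/Δ values lifted its mean over the filter, so its separation is a description. Each *Id2*Δ/Δ library exceeded each control, but the controls were farther apart than the genotypes, and the log2 fold change was 1.00 (SE 0.80, 95% interval -0.86 to 2.86, unadjusted p = 0.248, adjusted p = 0.910, limma). It was 0.41 without *Id2*+/+ replicate 1 and 1.58 without *Id2*+/+ replicate 2.

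**Figure D3:**
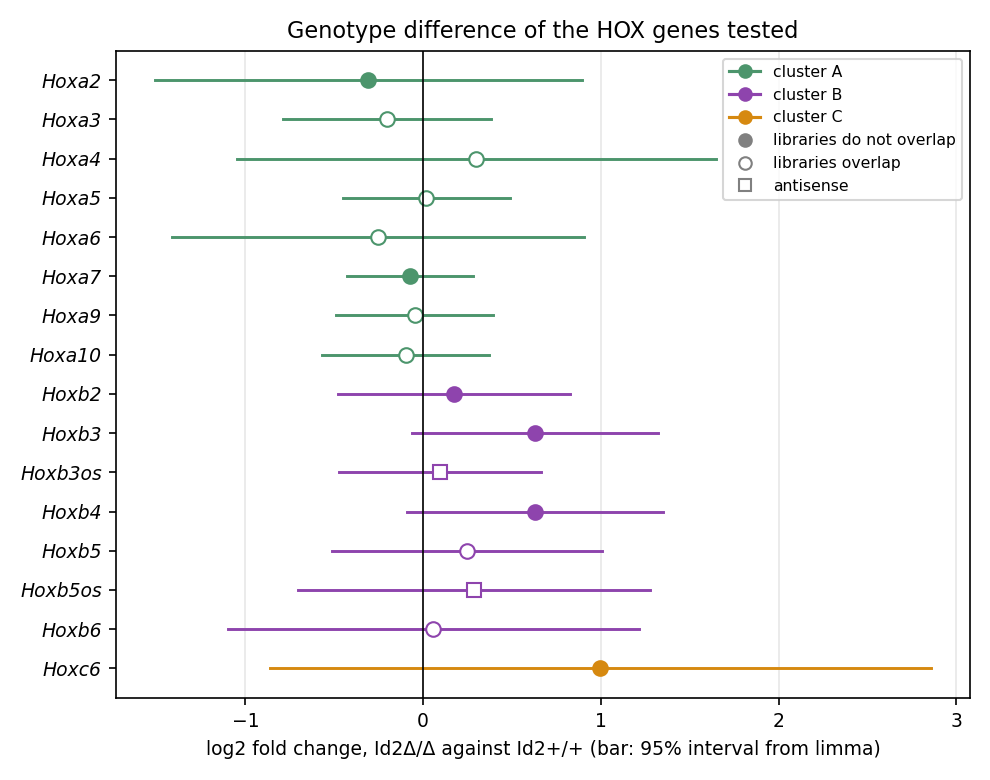
Log2 fold change of *Id2*Δ/Δ against *Id2*+/+ HSCs (horizontal axis) for the 16 tested HOX rows, coloured by cluster, with bars for the 95% interval from limma and filled points where the libraries of the genotypes do not overlap. Every interval includes 0, and *Hoxb3* and *Hoxb4*, both at 0.63, come closest to excluding it.

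Summed over the coding rows of a cluster, cluster B was 36.2 and 38.0 CPM in *Id2*+/+ and 53.2 and 47.4 CPM in *Id2*Δ/Δ HSCs. Both *Id2*Δ/Δ sums lay above both controls, by 1.36-fold or 0.44 on the log2 scale, with an exact two-sided permutation p = 0.333, which is the smallest p that 2 libraries against 2 can give. Leaving out a library moved the log2 ratio between 0.35 and 0.52. The sum includes *Hoxb3* and *Hoxb2*, with 52.9% and 27.3% of their exonic bases opposite *Hoxb3os*, so it shares that uncertainty. It also includes the untested *Hoxb7* and *Hoxb9*, and with tested rows only the log2 ratio was 0.42. Cluster A was 239 and 266 CPM in *Id2*+/+ and 220 and 267 CPM in *Id2*Δ/Δ HSCs, a ratio of 0.965 with overlapping groups (exact permutation p = 1). Its log2 ratio of -0.052 turned sign when *Id2*Δ/Δ replicate 1 (0.081) or *Id2*+/+ replicate 2 (0.029) was left out, and leaving out *Id2*Δ/Δ replicate 2 gave -0.20. The cluster A sum likewise includes *Hoxa3*, *Hoxa4* and *Hoxa7*, with 25.4%, 16.0% and 20.4% of their exonic bases opposite other genes. All 16 coding rows together were 276 and 306 against 275 and 316 CPM (ratio 1.02, exact permutation p = 1). In the same *Id2*Δ/Δ libraries the summed megakaryocyte markers were higher and the summed HSC markers lower, by the values given above, but not every marker moved with its sum. Of the 5 megakaryocyte markers 3 were higher in both *Id2*Δ/Δ libraries, against 19% of all genes tested, *Ppbp* was lower in both and *Itga2b* overlapped. Of the 9 HSC markers 5 were lower in both, against 15.8% of all genes tested, and *Kit* was the most abundant of them (11.08 and 10.93 against 10.19 and 10.55 log2 CPM). *Slamf1* was higher in both, and *Ly6a*, *Mllt3* and *Procr* overlapped. The part of these markers in the cluster B values was not tested.

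**Figure D4:**
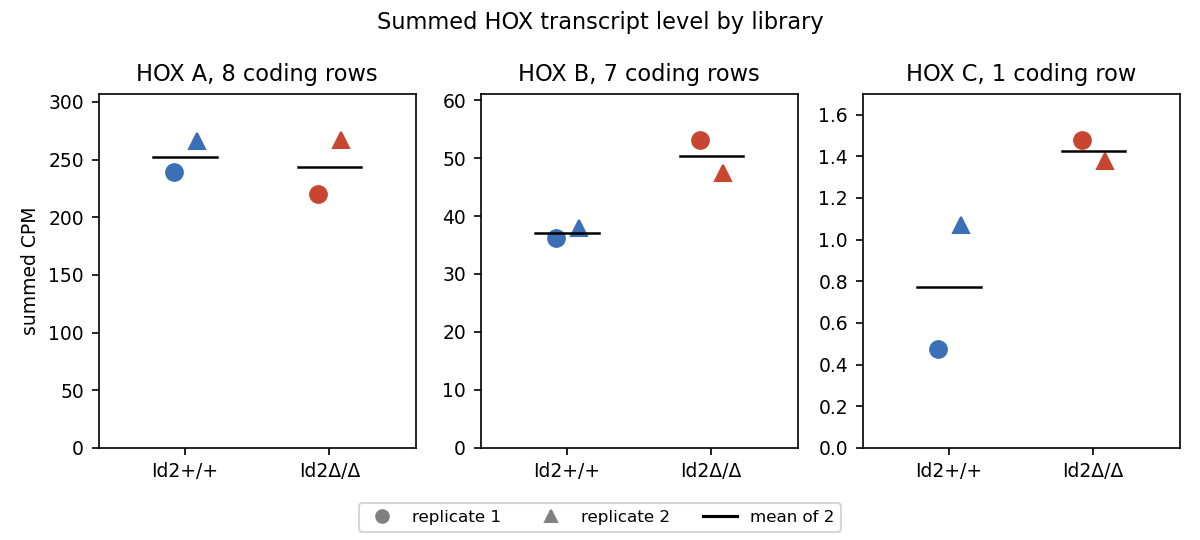
Summed CPM of the coding HOX rows (vertical axis, from 0) in each library by genotype (horizontal axis), with a panel for each cluster, shapes for replicates and lines for the mean of 2 libraries. Cluster B lies at 36.2 and 38.0 CPM in *Id2*+/+ and at 53.2 and 47.4 CPM in *Id2*Δ/Δ HSCs, while the cluster A libraries overlap.

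The clusters were also set against each other within a library, which removes any scaling of the whole library. This contrast was chosen after the values were seen and uses the same cluster B values as the sums, so it is a description and not separate evidence. The mean log2 CPM of the 5 tested cluster B genes minus that of the 8 cluster A genes was -0.95 and -1.07 in *Id2*+/+ and -0.43 and -0.74 in *Id2*Δ/Δ HSCs. Cluster B was thus nearer to cluster A in both *Id2*Δ/Δ libraries, by 0.43 on the log2 scale. This difference was 0.27 without *Id2*Δ/Δ replicate 1 and at most 0.59 when another library was left out.

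Genes that work with HOX proteins or on HOX loci were read from 5 lists, and none of their genes passed an adjusted p-value of 0.05 or an unadjusted p-value under 0.05 in limma. Of 9 PBX, MEIS and PKNOX cofactors, 8 were tested (*Pknox2* had no row), and 4 had a log2 fold change above 0 and 4 below it, with a median of 0.06. *Meis1*, the main partner of *Hoxa9* in blood, was 9.99 and 9.96 log2 CPM in *Id2*+/+ and 9.73 and 9.82 log2 CPM in *Id2*Δ/Δ HSCs. Its *Id2*Δ/Δ libraries lay below the controls, and the log2 fold change was -0.20 (SE 0.09, 95% interval -0.42 to 0.01, unadjusted p = 0.0629, adjusted p = 0.910, limma). *Pbx3*, which encodes another HOX partner, was 4.75 and 4.80 against 5.18 and 4.86 log2 CPM. Of these cofactors, 1 of 8 had both *Id2*Δ/Δ libraries above the controls, against 19% of all genes, and 3 of 8 had both below, against 15.8%.

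MLL complex members and other activators of HOX genes had 18 of 21 genes tested, 9 with a log2 fold change above 0 and 9 below, with a median of 0.01, and *Cdx1*, *Cdx2* and *Cdx4* had no row. *Kmt2a*, which encodes MLL itself, was 8.39 and 8.53 log2 CPM in *Id2*+/+ and 8.32 and 8.14 log2 CPM in *Id2*Δ/Δ HSCs. Its *Id2*Δ/Δ libraries lay below the controls, with a log2 fold change of -0.23, the lowest of this list. Of the 18 activators, 4 had both *Id2*Δ/Δ libraries above the controls, against 19% of all genes, and 2 had both below, against 15.8%. Polycomb members and related chromatin factors had 28 of 28 genes tested, 14 above and 14 below 0, with a median of -0.01, a list that includes *Kdm6a* and *Kdm6b*, which remove the Polycomb mark. *Bmi1*, a Polycomb gene that HSCs need for self-renewal, was 6.43 and 6.32 log2 CPM in *Id2*+/+ and 5.93 and 6.28 log2 CPM in *Id2*Δ/Δ HSCs, so that its log2 fold change was -0.27. *Pcgf1*, which encodes a related Polycomb ring-finger protein, was 3.39 and 3.44 against 4.08 and 3.74 log2 CPM, a log2 fold change of 0.49, so these relatives lay on opposite sides of their controls. *Bmi1* and *Pcgf1* had the lowest and the highest log2 fold change of the list. Of its 28 genes, 3 had both *Id2*Δ/Δ libraries above the controls, against 19% of all genes, and 5 had both below, against 15.8%.

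Noncoding genes of the HOX loci had rows for 3 of 18. *Hoxaas2*, antisense in cluster A, was 2.82 and 3.01 log2 CPM in *Id2*+/+ and 3.53 and 3.10 log2 CPM in *Id2*Δ/Δ HSCs, with groups that did not overlap and a log2 fold change of 0.40. *Hoxaas3* was 4.35 and 4.34 against 4.50 and 4.18 log2 CPM, with overlapping groups, and *Gm15050* was under the filter. Genes flanking the clusters had 11 of 18 tested, 6 with a log2 fold change above 0 and 5 below, with a median of 0.04. *Skap2*, next to cluster A, was 7.82 and 7.74 against 8.01 and 7.65 log2 CPM, and *Skap1*, on the flank of cluster B, was -0.55 and 0.95 against 1.27 and -0.03 log2 CPM. Both overlapped between genotypes.

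**Figure D5:**
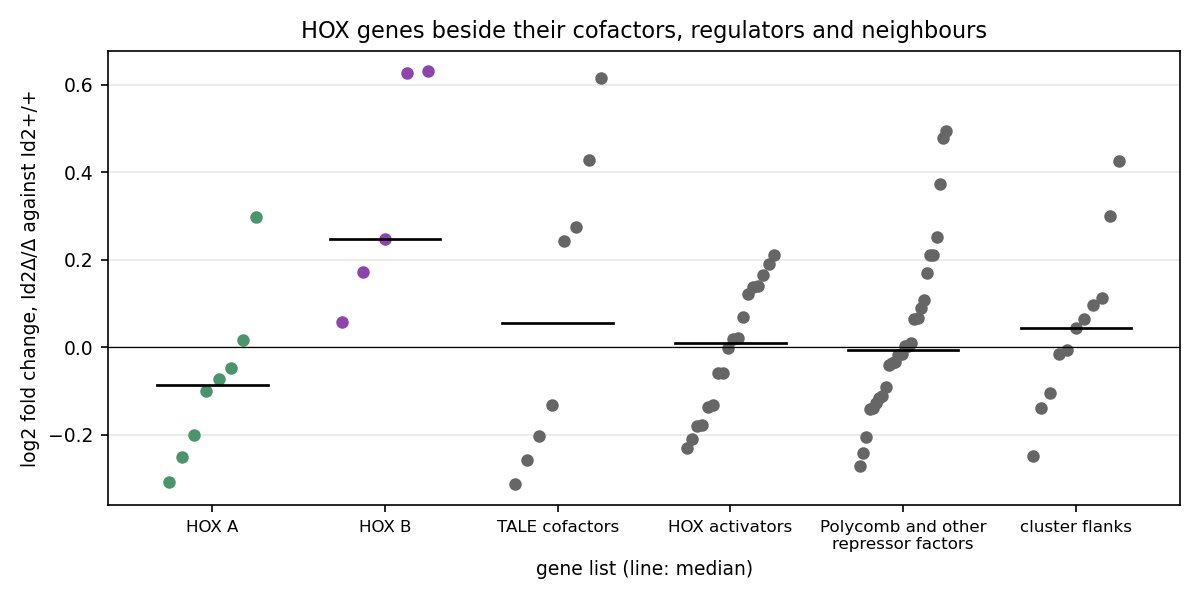
Log2 fold change of *Id2*Δ/Δ against *Id2*+/+ HSCs (vertical axis) for each tested gene of clusters A and B and of 4 of the lists (horizontal axis, the PBX, MEIS and PKNOX cofactors named TALE), with a point for each gene and a line for the median. The medians are -0.09 for cluster A, 0.25 for cluster B and 0.06 for the cofactors.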

How the data were processed

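RNA was sequenced from sorted HSCs, 2 libraries per genotype. The authors deposited log2 CPM values for 19354 genes. The unit was read from the values, as was quantile normalization (in 88.4% of ranks the 4 sorted columns lie within 0.1). The submitters' processing notes list CASAVA 1.8.4, Trimmomatic 0.30, TopHat2 2.0.8, RSEM and STAR with the builds mm9 and NCBIM37, without role or order, and the way shared and antisense reads were counted is not given in the sources used here. Below 32 CPM, the rank of a distinct value in a library gave its reads, and the depth was the median of reads plus 0.5 over CPM, between 14200000 and 18800000 reads. Intervals and floors cover counting error only.

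Log2 values were used as deposited, with no pseudocount. Genes averaging 1 CPM or more were compared with limma 3.58.1 in R 4.3.3 (lmFit, eBayes with an intensity trend, genotype only), two-sided with Benjamini-Hochberg adjustment over 15895 genes. Sums were compared by exact permutation. The scripts were tested on simulated data. GENCODE M21 (GRCm38) gave coordinates and lengths, by Ensembl identifier for 99.7% of rows (82.0% in the same version), and no coordinates were converted. Full statistics were given by rule for the 2 most abundant members of each cluster, members with an unadjusted p-value under 0.05 and the 5 largest changes among members whose groups do not overlap. The members and the lists were chosen with earlier results of these data known. Alternatives varied the pseudocount, filter, scaling, trend, transcript length, replicate block and libraries. Some members and list genes are not reported by name here.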

Additional observations from a re-analysis of the deposited data

How the results depend on the processing

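No HOX gene was called under any alternative run, and pseudocounts, scaling, trend, length correction and the replicate block changed no direction among the HOX genes, while the recovered reads turned *Hoxb6* to -0.052. Labels give each genotype replicates 1 and 2 without saying that a number marks an experiment, and same-numbered libraries deviated together only weakly (correlation 0.0592 over the genes tested, 0.144 above 32 CPM), so they were not taken as pairs. Among the coding HOX genes tested, *Hoxa2*, *Hoxa3*, *Hoxa7*, *Hoxa9*, *Hoxa10*, *Hoxb3*, *Hoxb4* and *Hoxb5* moved the same way between replicates in both genotypes. *Hoxa5*, *Hoxa6*, *Hoxb2*, *Hoxb6* and *Hoxc6* moved opposite ways. The share over all genes was not counted, and whether single genes follow the replicate number was not tested. Summed neutrophil markers were higher in replicate 1 than in replicate 2, at 141 and 51.9 CPM in *Id2*+/+ and 108 and 25.7 CPM in *Id2*Δ/Δ HSCs. With the replicate block, 1 of all genes was called against 0 without it, and with the block and a length correction also 1 (*C130089K02Rik* in both, -1.61 and -1.50 on the log2 scale, named after its values were seen), while the smallest adjusted p of a HOX gene was 0.869 (limma). An unadjusted p under 0.05 was reached by *Hoxb4* without the trend and by *Hoxb3* without *Id2*Δ/Δ replicate 2, where 859 and 2516 of all genes reached it.

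At a mean of at least 10 CPM, an alternative chosen after seeing the data for this count, only 2 cluster B genes were tested and both were above 0, with a median of 0.44. With no filter the cluster B median over 7 genes was 0.63. That median adds *Hoxb7* and *Hoxb9*, which overlapped between genotypes and had 1 and 0 reads in a control library, so it rests partly on values near the floor. Leaving out each library in turn moved the HOX median between -0.10 and 0.19, the cluster B median between 0.14 and 0.42 and the summed log2 ratio of cluster C (0.88 with all libraries) between 0.41 and 1.58. It turned the direction of *Hoxa4* (-0.090 to 0.69), *Hoxa5* (-0.13 to 0.17), *Hoxa6* (-0.64 to 0.13), *Hoxa9* (-0.31 to 0.22), *Hoxa10* (-0.23 to 0.029), *Hoxb5* (-0.10 to 0.59), *Hoxb6* (-0.13 to 0.25) and *Hoxb3os* (-0.15 to 0.34). The cause was not tested. Depth limits *Hoxb7*, *Hoxb9* and *Hoxc6*, each with fewer than 10 reads in a control library.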

Other observations

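Besides the listed noncoding genes, 3 rows lay inside a HOX cluster of the annotation and were picked after their values were seen. *5730596B20Rik*, opposite *Hoxa3*, had 5 and 4 reads in *Id2*+/+ and 19 and 0 reads in *Id2*Δ/Δ HSCs, and *Gm29430*, opposite *Hoxa3* and *Hoxa4*, had 32 and 23 against 45 and 7 reads. In both, *Id2*Δ/Δ replicate 1 was the highest and *Id2*Δ/Δ replicate 2 the lowest library. The processed pseudogene *Gm11539* in cluster B had 29 and 38 against 47 and 41 reads.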
